A study of Mus musculus with 7 samples.

Results

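The 10 solute carrier families Slc4, Slc8, Slc9, Slc12, Slc20, Slc24, Slc26, Slc30, Slc34 and Slc39 move bicarbonate, protons, chloride, calcium, phosphate, sulfate and metal ions across membranes. Their members were taken by gene symbol, as all probes whose symbol is one of these family names followed by "a" and a number. This gave 113 probes of 68 genes, of 25697 probes and 18138 symbols on the array. The tissue was the mouse incisor's labial cervical loop, an epithelial pocket at the growing end of the tooth that renews the enamel-forming cells. Control mice (n = 3 arrays) were Yap/Tazf/f, with floxed alleles of Yap and Taz and no Cre. Mutant mice (n = 4 arrays) were K14CreER;Yap/Tazf/f, with a tamoxifen-activated Cre under the keratin 14 promoter, which acts in epithelium and leaves the genes intact in other cells of the loop. Both genotypes, at 8 weeks of age, received 5 mg of tamoxifen daily over 2 consecutive days, and tissue was collected 48 hours after the last injection. All controls therefore share the floxed alleles and the tamoxifen but not the Cre, so effects of the Cre cannot be told apart from those of losing Yap and Taz.

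Enamel is made in stages. Ameloblasts first secrete a protein matrix and then, in the maturation stage, fill it with calcium and phosphate. Mineral growth releases protons, which these cells neutralise with bicarbonate moved by Slc4 and Slc26 exchangers, while Slc24 and Slc8 exchangers carry calcium and Slc34 and Slc20 cotransporters carry phosphate. The cervical loop lies upstream of those stages. Slc39 proteins (ZIP) bring zinc and other metals into the cytoplasm, and Slc30 proteins (ZnT) move zinc out of it. YAP and TAZ are co-activators that bind DNA through TEAD factors.

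No transporter passed the test between the genotypes. Of the 68 genes, 40 were detected well enough to test. Of their 57 probes, 0 had a limma adjusted p under 0.05, against 0.0614% of all tested probes. An unadjusted limma p under 0.05 was found for 8 of them (14.0%), beside 8.00% of all tested probes. All 4 mutant arrays were below all 3 controls in 2 of the 57 probes, those of Slc12a4 and Slc39a10, where 3.27% of all tested probes did so. They were above all 3 controls in 1 probe, a dimmer one of Slc9a8, where 3.28% of all tested probes did so. Slc12a4, the potassium and chloride cotransporter KCC1, measured 0.41 lower in mutants on the log2 scale (SE 0.12). Slc39a10, the zinc importer ZIP10, measured 0.33 lower (SE 0.11). Among the transporters used by enamel-forming cells, the chloride and bicarbonate exchanger Slc4a2 and the chloride cotransporter Slc12a2 were detected on every array, while the maturation-stage carriers Slc4a4 and Slc24a4 were detected on none.

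Promoter sequence is shown for Slc12a4, Slc39a10 and the phosphate carrier Slc20a1, with each gene judged by its tested probe of highest mean. In Slc12a4 and Slc39a10 the mutant and control arrays did not overlap. Slc20a1 had the largest difference among the members used by enamel-forming cells, though dimmer probes of Slc12a2 differed by more. The sequences are RefSeq's for GRCm38.p6 and run 250 bases before to 50 bases after an annotated start, 5′ to 3′ on the gene's strand. Capitals mark matches, on either strand, to the TEAD core CATTCC, which reads GGAATG when it lies on the opposite strand. They also mark the metal response core that the zinc sensor Mtf1 binds, for which TGCACNC was searched as the first form of the motif, with TGCGCNC searched as the other form. The 2 motifs do not overlap in these sequences. Slc12a4 has 1 start, at chr8:105966066-105966365 on the minus strand. Slc39a10 has 2 starts, at chr1:46925727-46926026 and chr1:46853569-46853868, both on the minus strand. Slc20a1 has 2 starts, at chr2:129198523-129198822 and chr2:129206846-129207145, both on the plus strand.
Slc12a4: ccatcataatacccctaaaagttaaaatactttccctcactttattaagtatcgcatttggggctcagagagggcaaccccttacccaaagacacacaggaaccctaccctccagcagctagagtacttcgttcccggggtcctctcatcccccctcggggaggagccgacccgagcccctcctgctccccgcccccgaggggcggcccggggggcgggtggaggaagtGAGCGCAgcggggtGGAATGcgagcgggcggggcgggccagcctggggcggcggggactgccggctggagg
Slc39a10 start A: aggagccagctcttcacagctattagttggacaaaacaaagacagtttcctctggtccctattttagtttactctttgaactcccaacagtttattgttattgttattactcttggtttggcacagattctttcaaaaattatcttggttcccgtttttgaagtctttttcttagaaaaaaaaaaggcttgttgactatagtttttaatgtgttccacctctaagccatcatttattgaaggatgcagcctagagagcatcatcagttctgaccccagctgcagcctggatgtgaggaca
Slc39a10 start B: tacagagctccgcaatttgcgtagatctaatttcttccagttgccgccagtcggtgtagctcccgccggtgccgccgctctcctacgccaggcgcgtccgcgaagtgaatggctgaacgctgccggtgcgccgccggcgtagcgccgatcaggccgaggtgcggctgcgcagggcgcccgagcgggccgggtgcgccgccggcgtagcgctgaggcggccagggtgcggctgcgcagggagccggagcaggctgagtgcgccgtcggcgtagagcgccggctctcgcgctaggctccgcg
Slc20a1 start A: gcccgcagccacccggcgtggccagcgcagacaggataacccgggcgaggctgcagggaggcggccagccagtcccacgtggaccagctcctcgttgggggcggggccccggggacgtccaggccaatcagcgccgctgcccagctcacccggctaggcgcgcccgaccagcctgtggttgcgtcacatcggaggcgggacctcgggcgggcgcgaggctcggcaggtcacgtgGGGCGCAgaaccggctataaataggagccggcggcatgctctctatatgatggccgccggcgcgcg
Slc20a1 start B: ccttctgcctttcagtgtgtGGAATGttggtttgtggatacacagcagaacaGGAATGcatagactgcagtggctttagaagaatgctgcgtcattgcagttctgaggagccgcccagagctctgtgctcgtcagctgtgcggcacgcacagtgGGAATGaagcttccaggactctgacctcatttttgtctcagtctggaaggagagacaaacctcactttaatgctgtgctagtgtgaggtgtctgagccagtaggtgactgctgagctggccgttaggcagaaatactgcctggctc
The Slc12a4 promoter holds a TEAD core match that begins 7 bases before the start and a metal response match that begins 21 bases before it. Neither Slc39a10 sequence holds a match to either motif in this window. The first Slc20a1 sequence holds 1 metal response match, 16 bases before the start, and the second holds 3 TEAD matches, at 230, 198 and 96 bases before it. Promoters were found for 52 member genes (68 promoter windows). A TEAD match stood in 8 of these windows (11.8%), against 14.7% of all 32851 promoter windows of the same length. A metal response match stood in 26 of them (38.2%), against 25.7% of all windows. These matches describe the letters only and do not show binding.

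The arrays were alike in depth of signal. Each array detected 13767 to 14752 of the 25697 probes, the median intensity lay between 80.8 and 86.2, and the lowest detected normalised value lay between 4.35 and 4.42 on the log2 scale. Pearson correlations over the tested probes were 0.977 to 0.985 between arrays of the same genotype and 0.978 to 0.986 between arrays of different genotypes. Of the targeted genes, Yap1 was lower in mutants by 0.68 (SE 0.12, limma adjusted p = 0.0443) and Wwtr1, which encodes TAZ, measured -0.15 (SE 0.14, limma adjusted p = 0.819). The Wwtr1 values ran from 4.36 to 4.91 over the 7 arrays, near the detection limit, where the background offset compresses differences. No probe of the array, Yap1 included, was called with no detection filter, a detection p under 0.01, no background correction, an offset of 50 or the series matrix values, or without control 2, mutant 1 or mutant 3. Where the probes lie relative to the floxed exons is not known here. There were 2 BeadChips, one with 2 control and 2 mutant arrays (chip 1, the first) and one with 1 control and 2 mutant arrays (chip 2), and the chip was a term in the fit. Dental epithelium markers were all detected, with Krt14 at 9.95 ± 0.02 (SD, n = 3) in controls and 9.94 ± 0.18 (SD, n = 4) in mutants. No endothelial marker of 5 was detected well enough to test. Because these are bulk loops, fewer cells of a type and less RNA per cell cannot be told apart. Markers of other cells were summed per array. The 3 tested ameloblast markers of 7 (Ambn, Enam and Amelx) summed to 375 to 463 intensity units in controls and 428 to 1127 in mutants, while Mmp20 and Klk4 of that list were detected on 0 arrays. The 8 tested odontoblast and osteoblast markers of 10 summed to 301 to 394 in controls and 290 to 709 in mutants. The 7 tested macrophage markers of 10 summed to 237 to 291 in controls and 272 to 356 in mutants. The 4 tested Schwann cell markers of 5 summed to 170 to 173 in controls and 181 to 235 in mutants. Of all these markers only the macrophage gene Lyzs passed the test, at 0.74 higher in mutants (limma adjusted p = 0.0443). Of the 4 lists only the Schwann cell sums did not overlap. Single genes could separate where sums overlapped. Ambn measured 1.12 higher (SE 0.24), Enam 0.90 (SE 0.18) and Col1a1 1.26 (SE 0.26), with limma adjusted p from 0.134 to 0.160. In each, all 4 mutant arrays lay above all 3 controls, where 3.28% of all tested probes did so. Of the 8 odontoblast and osteoblast markers, 7 measured higher and 1 lower, and Amelx measured 0.46 higher with overlapping groups. Among those 7, Spp1 was detected on 0 control and 3 mutant arrays, so it met the detection filter through mutant arrays alone. The direction of Spp1 therefore cannot be judged, and Spp1 is also part of the summed values. The part of these cells in the transporter values was not tested.

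The number of detected genes differed between the families. A probe counted as tested when its detection p was under 0.05 on at least 3 of the 7 arrays. Of the 113 member probes, 57 met this, and 50 of those were detected on all 7 arrays. Over the whole array, 14666 of 25697 probes met it, and 10484 of 18138 symbols had such a probe, beside 40 of the 68 member genes. Of the 56 others, 39 were detected on no array, 10 on 1 and 7 on 2. The zinc families had 10 of 12 Slc39 genes and 6 of 9 Slc30 genes tested. The cation and chloride cotransporters had 7 of 9 Slc12 genes tested. Chloride, bicarbonate and sulfate exchangers had 5 of 10 Slc26 genes and 4 of 8 Slc4 genes tested. Sodium and proton exchangers had 2 of 7 Slc9 genes tested. Calcium exchangers had 3 of 6 Slc24 genes and 1 of 3 Slc8 genes tested. Phosphate carriers had the single Slc20 gene on the array and 1 of 3 Slc34 genes tested. Genes below the filter included several that other organs are known for: Slc4a1, the red cell anion exchanger, Slc12a1 and Slc34a1 of the kidney tubule, Slc26a5, the motor protein of cochlear hair cells, and Slc30a8 of the insulin granule. A probe below the filter was not shown to be unexpressed, since its signal was not separated from the negative controls.

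**Figure D1:**
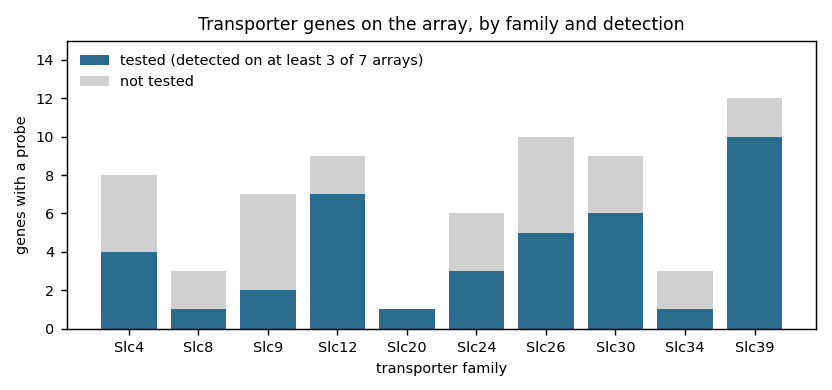
Bars give the number of genes with a probe in each of the 10 transporter families, split into genes tested (a probe with detection p under 0.05 on at least 3 of 7 arrays) and genes not tested. Slc39 and Slc12 hold the most tested genes, 10 and 7, and Slc8, Slc20 and Slc34 hold 1 each.

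Over the 40 tested genes, each described by its tested probe of highest mean, 17 measured higher and 23 lower in mutants. Their median difference was -0.019, and that over all 10484 tested genes was -0.00026, where 49.9% measured higher. Differences ran from -0.41 to 0.30, and 35 of the 40 genes (87.5%) lay within 0.2 of no difference, beside 83.7% of all genes. The standard errors of the members ran from 0.11 to 0.15, and the 95% intervals of the 40 genes together reached from -0.68 to 0.58. Without the multiple-testing adjustment, 8 of the 57 probes (14.0%) had a limma p under 0.05, 3 higher and 5 lower, beside 8.00% of all tested probes. These 8 probes came from 6 genes, Slc12a4, Slc39a10, Slc12a2, Slc9a8, Slc39a7 and Slc39a8, and after adjustment over all probes the smallest limma p among them was 0.375. All 4 mutant arrays lay above all 3 controls in 1 member probe of 57, where 3.28% of all tested probes did so, and below them in 2, where 3.27% did so.

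**Figure D2:**
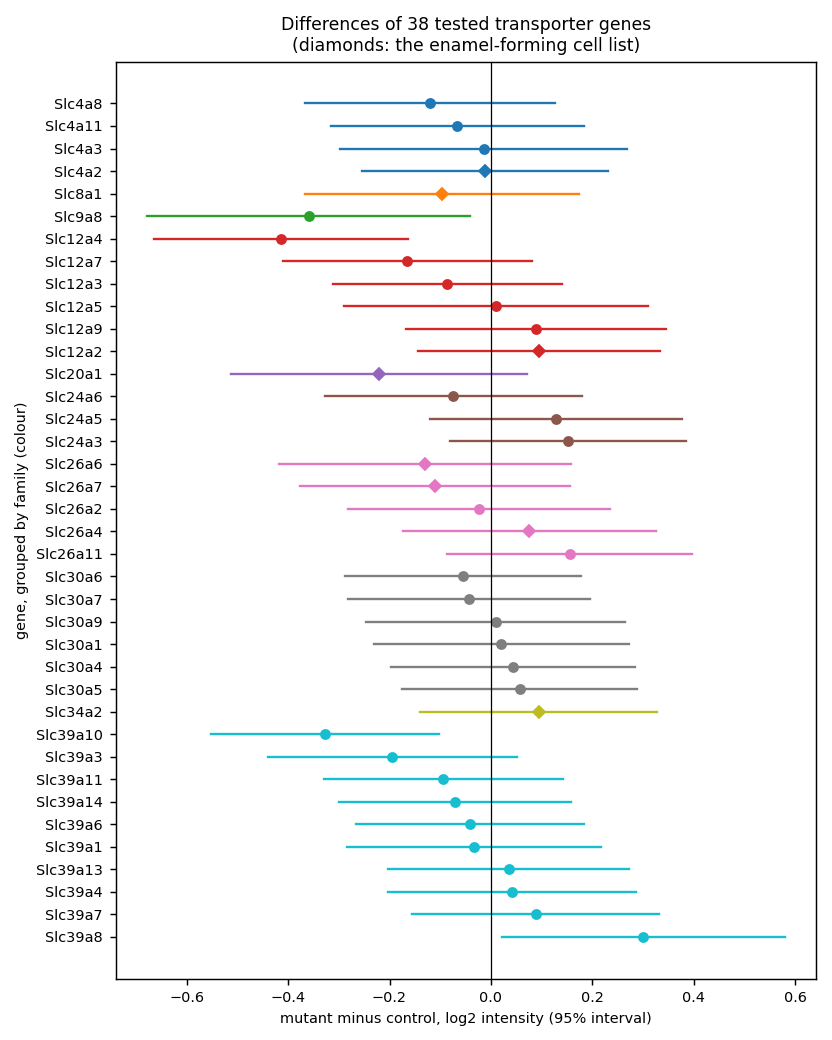
The horizontal axis gives mutant minus control in log2 intensity for 38 of the 40 tested genes, with points for the fitted difference, lines for its 95% interval and colour for the family. The points run from -0.41 (Slc12a4) to 0.30 (Slc39a8), and 33 of them lie within 0.2 of no difference.

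Among the transporters that enamel-forming cells are known to use, 15 were listed and 14 had a probe. Of these, 9 were tested, 3 measured higher and 6 lower, and 0 were called, beside the same 0.0614% of all probes. Their median difference was -0.012. The mean log2 value of the 9 genes lay between 5.78 and 5.87 on the control arrays and between 5.72 and 5.86 on the mutant arrays, so the genotypes overlapped. The other 5 with a probe, Slc4a4, Slc8a3, Slc24a4, Slc26a1 and Slc26a3, were detected on 0 arrays. Slc4a4 (NBCe1) brings bicarbonate into maturation ameloblasts, and Slc24a4 (NCKX4) exports calcium there. Loss of either is known to give defective enamel.

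For acid and base transport, Slc4a2 (AE2), which exchanges chloride for bicarbonate at the basolateral membrane of ameloblasts, had log2 values of 6.38, 6.63 and 6.61 in controls and 6.66, 6.45, 6.44 and 6.57 in mutants. The groups overlapped throughout, with a difference of -0.012 (SE 0.12, 95% interval -0.25 to 0.23, limma adjusted p = 0.990). Differences inside this interval could not be told from none with 7 arrays. Of the Slc26 chloride and bicarbonate exchangers of the list, 3 were tested. Slc26a7 had 5.52, 6.03 and 5.38 in controls and 5.64, 5.59, 5.24 and 5.44 in mutants, with control replicate 2 the highest of the 7 and a difference of -0.11 (SE 0.13). Another Slc26a7 probe measured -0.18 (SE 0.13). Slc26a4 (pendrin) lay close to the detection limit at 4.52, 4.76 and 4.63 in controls and 4.49, 4.83, 4.78 and 4.80 in mutants, a difference of 0.076 (SE 0.12). Slc26a6 also lay near that limit, at 4.49, 4.59 and 4.87 in controls and 4.47, 4.58, 4.89 and 4.25 in mutants, and mutant replicate 4, its lowest array, was not above background. Its difference was -0.13 (SE 0.14).

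For calcium and phosphate, Slc8a1 (NCX1), a sodium and calcium exchanger, had 5.25, 4.79 and 4.72 in controls and 4.73, 4.85, 4.93 and 4.71 in mutants. Only control replicate 1 stood above the rest, and the difference was -0.096 (SE 0.13). Slc20a1 (PiT1), a sodium-dependent phosphate importer, had 4.58, 4.84 and 4.86 in controls and 4.40, 4.94, 4.29 and 4.44 in mutants. 3 of its 4 mutant arrays were below every control, while mutant replicate 2 was the highest of all 7. Values lay near the detection limit, and mutant replicate 3, the lowest array, was not above background. The Slc20a1 difference was -0.22 (SE 0.14, limma adjusted p = 0.713), made of -0.040 on chip 1 and -0.49 on chip 2. With 1 array left out it ran from -0.038 without control replicate 3 to -0.39 without mutant replicate 2, with -0.13 without mutant replicate 1 and -0.34 without control replicate 1, and it was -0.066 with no background correction, -0.090 with an offset of 50 and -0.067 with the series matrix values. Slc34a2 (NaPi-IIb), a phosphate importer of epithelia and maturation ameloblasts, had 5.08, 5.01 and 4.87 in controls and 5.03, 5.10, 4.97 and 5.18 in mutants. It measured 0.094 higher (SE 0.11), with overlapping groups.

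**Figure D3:**
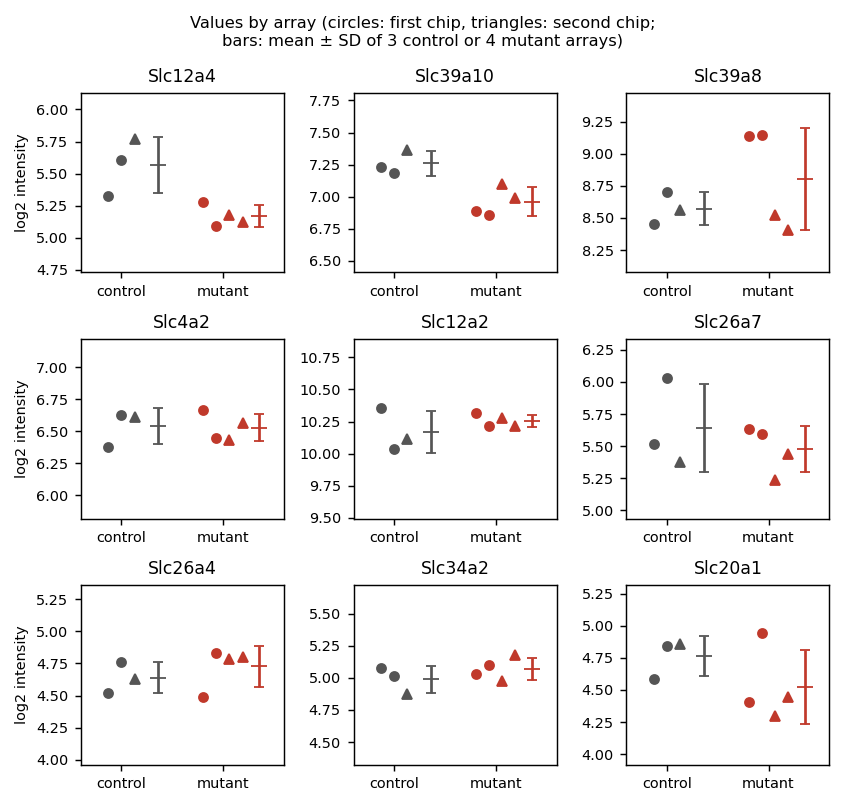
Each panel plots 1 gene, with the normalised log2 intensity on the vertical axis, 1 point per array, circles for the first chip and triangles for the second, and bars for the mean ± SD of 3 control or 4 mutant arrays. Slc12a4 and Slc39a10 show no overlap between genotypes, while the mutants of Slc39a8 split by chip.

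The Slc12 family cotransports chloride with sodium or potassium and sets cell volume and chloride content. It held the largest difference of the whole set. Slc12a4 had log2 values of 5.33, 5.61 and 5.77 in controls (5.57 ± 0.22, SD, n = 3) and 5.28, 5.09, 5.18 and 5.12 in mutants (5.17 ± 0.08, SD, n = 4). The highest mutant array was just below the lowest control. The fitted difference of -0.41 (SE 0.12) had an unadjusted p of 0.0026 and an adjusted p of 0.375 in limma, and it was -0.28 on chip 1 and -0.61 on chip 2. In the authors' deposited table, Slc12a4 had a p-value of 0.00102 and a q-value of 0.131. Slc12a7 (KCC4), from the same potassium and chloride branch, had 4.93, 4.56 and 4.85 in controls and 4.47, 4.61, 4.76 and 4.73 in mutants, a difference of -0.16 (SE 0.12) with overlapping groups. Slc12a9, a related protein, had 5.41, 5.30 and 5.60 in controls and 5.73, 5.56, 5.39 and 5.38 in mutants. Its difference of 0.089 (SE 0.12) was 0.29 on chip 1 and -0.21 on chip 2.

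Slc12a2 (NKCC1), which loads cells with sodium, potassium and chloride and is used by the cells around the ameloblast layer, had 3 tested probes that disagreed. The brightest had 10.35, 10.03 and 10.12 in controls and 10.32, 10.22, 10.28 and 10.22 in mutants, and measured 0.095 higher (SE 0.11, limma adjusted p = 0.866). Another had 8.10, 7.66 and 8.31 in controls and 7.56, 7.34, 8.08 and 8.18 in mutants, and measured -0.33 (SE 0.13, unadjusted p = 0.0167 and adjusted p = 0.506 in limma). The dimmest had 5.68, 5.21 and 5.47 in controls and 5.05, 5.09, 5.27 and 5.38 in mutants, and measured -0.28 (SE 0.12, unadjusted p = 0.0338 and adjusted p = 0.583 in limma). On both of these, the first-chip mutants were the lowest 2 of all 7 arrays. On chips 1 and 2 the former measured -0.43 and -0.18, and the latter -0.38 and -0.14. One more Slc12a2 probe was detected on 2 control arrays and on 0 mutant arrays and was not tested. Where the probes sit on the transcript is not known here, so which describes the gene was not settled.

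Zinc importers of the Slc39 family gave 4 genes measuring higher and 6 lower. Slc39a10 had 7.23, 7.18 and 7.37 in controls (7.26 ± 0.09, SD, n = 3) and 6.89, 6.85, 7.10 and 6.99 in mutants (6.96 ± 0.11, SD, n = 4). Every mutant array was below every control. Its difference of -0.33 (SE 0.11) had an unadjusted p of 0.0064 and an adjusted p of 0.456 in limma, and it was -0.33 on chip 1 and -0.32 on chip 2. In the authors' deposited table, Slc39a10 had a p-value of 0.00201 and a q-value of 0.157. Slc39a6 (ZIP6), the closest relative of ZIP10, varied little, at 9.42 to 9.54 on all 7 arrays, with a difference of -0.042 (SE 0.11). Slc39a3 (ZIP3), a zinc importer of the cell surface, had 5.21, 4.88 and 5.29 in controls and 4.87, 4.89, 4.95 and 5.16 in mutants, a difference of -0.19 (SE 0.12).

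Slc39a8 (ZIP8), an importer of manganese and zinc, gave the highest difference of the set and the widest disagreement between chips. Its values were 8.45, 8.71 and 8.56 in controls and 9.14, 9.15, 8.53 and 8.40 in mutants. The first-chip mutants stood above every control, and those of the second chip did not. The difference of 0.30 (SE 0.13, unadjusted p = 0.0360 and adjusted p = 0.583 in limma) was 0.56 on chip 1 and -0.094 on chip 2. Another Slc39a8 probe measured -0.058 (SE 0.12). Among the dental epithelium markers, Cdh1 (E-cadherin) had a like order of arrays. Its values were 8.47, 8.71 and 8.34 in controls and 9.17, 9.33, 8.56 and 8.40 in mutants. Cdh1 is 1 of 8 tested markers of that list, of which 2 measured higher and 6 lower. On chip 1, where Cdh1 measured 0.66 higher, Krt14 measured -0.032 and Krt5 0.032. Whether the epithelial share of the loops takes part in the Slc39a8 value was not tested. Slc39a7 (ZIP7), which releases zinc from the endoplasmic reticulum, had 6.84, 6.53 and 6.70 in controls and 6.84, 6.86, 6.74 and 6.60 in mutants, a difference of 0.088 (SE 0.12). A dimmer Slc39a7 probe had 6.01, 6.03 and 5.58 in controls and 6.26, 6.33, 5.82 and 5.75 in mutants. That probe measured 0.25 higher (SE 0.11, unadjusted p = 0.0304 and adjusted p = 0.570 in limma), and the remaining one -0.17 (SE 0.13). The other 5 tested Slc39 genes, Slc39a1, Slc39a4, Slc39a11, Slc39a13 and Slc39a14, lay between -0.094 and 0.041.

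The zinc exporters of the Slc30 family had small measured differences. By the brightest probe of each, their 6 tested genes ran from -0.055 (Slc30a6) to 0.057 (Slc30a5), 4 higher and 2 lower. Another Slc30a5 probe measured -0.10 (SE 0.11). Slc30a1 (ZnT1), the exporter of the plasma membrane and a known target of the zinc sensor Mtf1, had 5.83, 5.78 and 6.07 in controls and 5.96, 6.05, 5.91 and 5.72 in mutants, a difference of 0.020 (SE 0.12, 95% interval -0.23 to 0.27). Slc30a4 (ZnT4) had 7.42, 7.26 and 6.90 in controls and 7.23, 7.35, 6.96 and 7.19 in mutants, a difference of 0.043 (SE 0.12). Arrays of the second chip held the lowest 3 of its 7 values. Slc30a5, Slc30a6 and Slc30a7 load zinc into the secretory pathway, where enzymes such as alkaline phosphatase need it.

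Among the remaining exchangers, Slc9a8 (NHE8), a sodium and proton exchanger of the Golgi and of apical membranes, had 4 tested probes that pointed in both directions. The brightest had 5.48, 5.08 and 5.32 in controls and 4.42, 5.03, 5.36 and 5.14 in mutants, with mutant replicate 1 far below the others. Its difference was -0.36 (SE 0.15, unadjusted p = 0.0286 and adjusted p = 0.564 in limma), made of -0.55 on chip 1 and -0.067 on chip 2. Another probe had 4.85, 4.59 and 4.86 in controls and 5.04, 5.01, 4.96 and 5.15 in mutants, all 4 above all 3 controls. That probe measured 0.26 higher (SE 0.11, unadjusted p = 0.0327 and adjusted p = 0.581 in limma), and the other 2 probes -0.071 and -0.18. Slc4a8 (NDCBE), a sodium-driven chloride and bicarbonate exchanger, had 5.24, 5.13 and 4.90 in controls and 4.98, 4.92, 4.80 and 5.10 in mutants, a difference of -0.12 (SE 0.12), and another of its probes measured 0.055 (SE 0.12). Slc26a11, a sulfate transporter, had 5.19, 4.96 and 4.71 in controls and 5.08, 5.20, 4.92 and 5.10 in mutants, a difference of 0.15 (SE 0.12). The 3 tested Slc24 genes did not share a direction. Slc24a3 (NCKX3), a calcium exporter, was detected on 0 control and 3 mutant arrays, so it met the detection filter through mutant arrays alone. It had 4.21, 4.30 and 4.32 in controls and 4.48, 4.43, 4.53 and 4.29 in mutants, with overlapping groups. Mutant replicate 4, its lowest mutant array, was not above background. The Slc24a3 difference was 0.15 (SE 0.11, limma adjusted p = 0.765), and its direction cannot be judged, since the filter selected the gene by its mutant arrays. Slc24a5 (NCKX5), known from pigment cells, measured 6.09, 6.31 and 6.23 in controls and 6.27, 6.56, 6.17 and 6.28 in mutants, a difference of 0.13 (SE 0.12). Slc24a6, now named Slc8b1, is the mitochondrial sodium and calcium exchanger and measured -0.075 (SE 0.12).

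Probes of 1 gene often disagreed. Of the 12 member genes with several tested probes, 4 had all probes on the same side of no difference and 8 had probes on both sides. Of the 8 probes with an unadjusted limma p under 0.05, 6 belonged to genes with probes on both sides, namely Slc12a2, Slc9a8, Slc39a7 and Slc39a8. Slc12a4 and Slc39a10 have 1 probe each, so no other probe bears on their values.

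**Figure D4:**
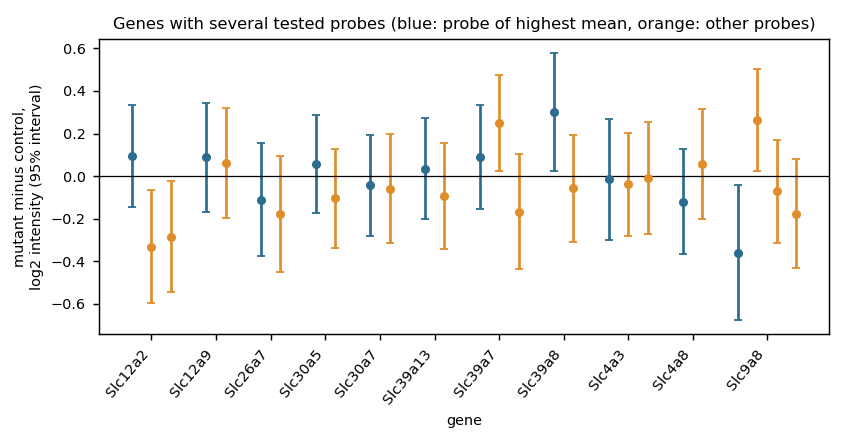
The vertical axis gives mutant minus control in log2 intensity with its 95% interval for every tested probe of 11 of the 12 genes with several tested probes, in blue for the brightest probe of a gene and in orange for the others. In 7 of these 11 genes the probes lie on both sides of no difference.

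The 2 chips can be read apart. The difference had the same sign on both chips in 28 of the 57 member probes (49.1%), 20 lower on both and 8 higher on both, beside 55.0% of all tested probes. Over all 14666 tested probes, 4027 were lower on both chips and 4045 higher on both. Among the 8 probes with an unadjusted limma p under 0.05, 7 kept their sign on both chips and the bright Slc39a8 probe did not. The chip differences use 2 against 2 and 1 against 2 arrays, so they are coarse. The within-genotype SD of the member probes ran from 0.057 to 0.38 with a median of 0.154, beside 0.152 over all tested probes. The widest were the Slc12a2 probe of middle brightness, the brightest Slc9a8 probe and the bright Slc39a8 probe, at 0.381, 0.338 and 0.316.

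**Figure D5:**
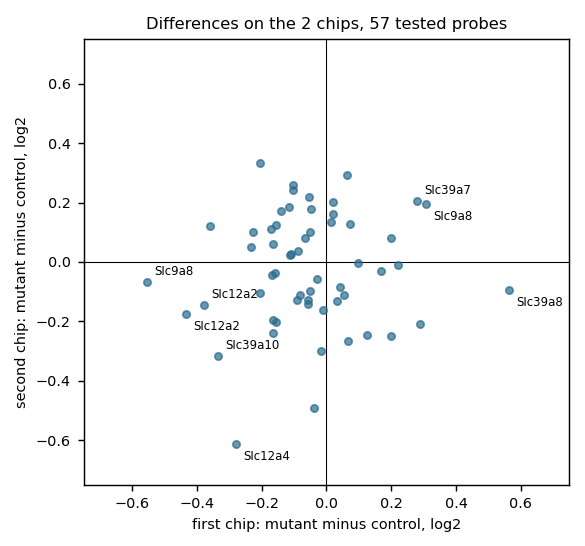
Each of the 57 tested member probes is placed by its mutant minus control difference on the first chip (horizontal axis) and on the second (vertical axis), both in log2 intensity. Names mark the 8 probes with an unadjusted p under 0.05. Slc39a10 is near -0.33 on both chips, while Slc39a8 reaches 0.56 on the first chip alone.

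Partners of these transporters were listed beside them. Of 9 tested regulators of cation and chloride cotransport and of proton exchange, 4 measured higher and 5 lower with a median of -0.031. Of their 13 probes 0 were called, beside 0.0614% of all tested probes, and 1 had an unadjusted limma p under 0.05. The one with the smallest p was Slc9a3r1 (NHERF1), a scaffold that ties exchangers and Cftr to the apical membrane, which is no member since its symbol carries a suffix. Its values were 8.84, 8.35 and 8.60 in controls and 8.05, 8.27, 8.34 and 8.22 in mutants. The highest mutant array was just below the lowest control. The difference of -0.39 (SE 0.13, limma adjusted p = 0.456) was -0.43 on chip 1 and -0.32 on chip 2. Wnk1, a kinase that switches Slc12 cotransporters, measured -0.19 (SE 0.12). Of 15 other tested genes of enamel ion handling, 8 measured higher and 7 lower with a median of 0.016. One of their 24 probes was called, beside 0.0614% of all tested probes. It was the chloride channel Cftr, which fell by 0.97 (SE 0.18, limma adjusted p = 0.0455), from 5.66 ± 0.52 (SD, n = 3) to 4.71 ± 0.24 (SD, n = 4). This call was also lost in each setting listed for Yap1 above. Kcnj15, a potassium channel of that list, measured -0.23 (SE 0.12) and Ano1, a chloride channel, 0.18 (SE 0.14).

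Of 7 tested genes of phosphate and mineral handling, 0 measured higher and 7 lower, with a median of -0.063, where 49.9% of all tested genes measured higher. Of their 11 probes 0 were called, beside 0.0614% of all tested probes, and 1 had an unadjusted limma p under 0.05. Akp2, the older name of the tissue-nonspecific alkaline phosphatase Alpl, measured -0.35 (SE 0.17, limma adjusted p = 0.618), -0.12 on chip 1 and -0.70 on chip 2. Kl (Klotho), the co-receptor of the phosphate hormone Fgf23, measured -0.27 (SE 0.14, limma adjusted p = 0.654), -0.45 on chip 1 and 0.0048 on chip 2. Xpr1, a phosphate exporter, measured -0.063 (SE 0.12). Apart from Akp2 and Kl, the tested genes of this list lay between -0.086 and -0.023. Each of those differences was smaller than its SE, so their shared sign is not a distinct fall. Of 3 tested zinc handling genes, Mtf1 measured 0.14 (SE 0.12), and the metal-binding metallothioneins Mt1 and Mt2 measured -0.094 (SE 0.14) and -0.052 (SE 0.13).

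In the authors' deposited table, 68 member probes are listed among 17174. The authors' deposited table gives a q-value under 0.05 to 0 of them and to 13 probes in all. It gives a p-value under 0.05 to 6 of the 68 (8.82%), beside 10.9% of all probes in the authors' deposited table.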

How the data were processed

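Total RNA of each sample was hybridised to 1 Illumina array as biotinylated cRNA, per the labels' protocols. The intensity of each of 25697 probes was deposited without normalization, per the file headers, with a detection p-value and a bead number. The deposited series matrix holds log2 values. The deposited comparison gives the authors' p-value and q-value per probe, and its name states an adjustment for the array ID.

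Here limma 3.58.1 (R 4.3.3) removed background from the intensities by normal-exponential convolution with an offset of 16, and log2 values were quantile normalised. The offset compresses differences of dim probes. Probes detected at p under 0.05 on at least 3 of 7 arrays, 14666 of 10484 symbols, were fitted by lmFit and eBayes with genotype and chip as terms (4 residual and 15.5 prior degrees of freedom). Differences are mutant minus control, tests are two-sided, and p-values were adjusted by the Benjamini-Hochberg method over all tested probes with 0.05 as the threshold. The fit was tested on simulated data. Group means and SDs leave out the chip term. Levels of different probes were ranked to pick a gene's describing probe and to call its probes brighter or dimmer. They were averaged or added over gene lists, and bright probes weigh most in the sums. The labels do not say that samples are separate animals, so the p-values reflect the spread between the samples alone, which may be technical, and the number of arrays limits precision.

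A gene is described by its tested probe of highest mean. The text names all members used by enamel-forming cells, up to 8 genes in each direction of smallest p, genes whose groups do not overlap, and up to 4 genes of each other list. The values of 2 tested genes are not reported here, though counts and medians include them. Values of further members were added after they were seen. Members and lists were chosen with earlier results of these data known. Of the 68 symbols, 66 stand in RefSeq's table of GRCm38.p6 and 2 through an older symbol (Slc24a6, now Slc8b1, and Slc9a10, now Slc9c1). The files name no genome build, and probe positions were not used. The alternatives tried were the detection filter, background, offset, normalization, chip term, replicate block, eBayes options, array weights, series matrix values, probe rule and each array left out.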

Additional observations from a re-analysis of the deposited data

Results flagged for a closer look

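In 31 tested member probes, the arrays of the mutant genotype were examined for 1 array far from the other 3, and 2 probes had one by Dixon's 95% criterion on the gap over the range. Chance marks about 1 in 20 groups. For Slc26a4 (pendrin), mutant replicate 1 measured 4.49 where the other mutants measured 4.78 to 4.83 on the log2 scale. For the dimmer probe of Slc4a8, mutant replicate 4 measured 4.67 where the other mutants measured 4.32 to 4.37. Both probes lie near the detection limit, and the cause was not tested.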

How the results depend on the processing

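No member probe had a limma adjusted p under 0.05 in any of the settings tried, and the smallest over the 20 named genes was 0.122, for Slc39a10. Its adjusted p ran from 0.122 to 0.691 and that of Slc12a4 from 0.156 to 0.742, both always lower in mutants. Member probes with an unadjusted p under 0.05 numbered 3 (no chip term) to 8. The median of the members ran from -0.051 to 0.062. Median scaling moved the median of all genes to 0.074 and that of the members to 0.062, with 26 of 40 genes higher in place of 17. The count of called probes among all fell from 9 to 0 with no detection filter, with a detection p under 0.01, with no background correction, with an offset of 50 and with the series matrix values. With 1 array left out it ran from 0 to 15, at 15 without control 1, 0 without control 2, 1 without control 3, 0 without mutant 1, 0 without mutant 3 and 5 without mutant 4. Replicate numbers did not pair the samples (correlations of deviations -0.019, 0.16 and 0.15), and with a replicate block 9 probes in all and 0 member probes were called.

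Of 352 values of 20 named genes, 340 kept their sign and 12 turned. Median scaling turned Slc4a2 to 0.094. The mean over its probes gave -0.17 for Slc12a2, and the probe of smallest SD gave -0.058 for Slc39a8 and 0.26 for Slc9a8. With 1 array left out, Slc4a2 ran from -0.091 to 0.054, Slc8a1 from -0.23 to 0.052, Slc26a7 from -0.23 to 0.031, Slc39a7 from -0.012 to 0.17 and Slc12a9 from -0.0044 to 0.29. The cause was not tested. A detection p under 0.01 left 36 of the 40 genes.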

Other observations

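Some transporters known mainly from other organs gave signal above background in the cervical loop. Slc12a3, the thiazide-sensitive cotransporter of the kidney, was detected on all 7 arrays by 1 of its 3 probes, at 5.42 to 5.73 on the log2 scale, and on 0 arrays by the other 2. Slc24a5, known from pigment cells, was detected on all 7 arrays at 6.09 to 6.56 by its only probe. Slc12a5 (KCC2), known from neurons, was detected on 3 control and 3 mutant arrays, at 4.21 to 4.94. Whether these probes bind other transcripts was not tested.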
